A study of Homo sapiens with 12 samples.

Results

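The integrin subunits described here are 10 genes, ITGA2, ITGA3, ITGA5, ITGA6, ITGAV, ITGB1, ITGB4, ITGB5, ITGB6 and ITGB8, out of 20046 genes with a symbol on the array. They were taken by name and followed through every probe that the value table assigns to them. That gave 23 probes of 47323 on the array. After the filter on detection, described below, 9 of the 10 genes and 13 of the 23 probes were left, among 12300 genes and 20889 probes that could be tested.

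RNA was measured in xenograft tumours of H3122, a long-established human line of lung adenocarcinoma that depends on the EML4-ALK fusion. Mice with established tumours received ceritinib, an inhibitor of the ALK kinase, at 75 mg/kg (4 tumours), 87.5 mg/kg (3 tumours) or 100 mg/kg (3 tumours), or were controls (2 tumours). Per the study's design text, treated tumours shrank and then became resistant within 24 to 108 days, and the day on which each tumour was taken is not stated. The labels name neither the mouse strain nor the control treatment, and they do not say if every tumour had a mouse of its own, so p-values measure the spread between these tumours only.

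Integrins are receptors of the cell surface that bind the extracellular matrix outside and the actin or keratin cytoskeleton inside. Each receptor pairs an alpha with a beta subunit, the pair decides which matrix protein is bound, and a subunit without a partner does not reach the surface. In lung epithelium and its tumours the alpha subunits that pair with ITGB1 bind collagen, laminin and fibronectin, ITGA6 with ITGB4 anchors cells to the basement membrane, and ITGAV with its beta partners binds proteins that carry the RGD motif, among them the latent form of TGF-beta.

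The arrays detected 38.0% to 41.2% of the probes, a probe counting as detected with a deposited detection p under 0.01. In treated against control tumours, 1215 genes were higher and 1103 lower, 18.8% of all genes tested (limma, Benjamini-Hochberg adjusted p under 0.05). The split depended on the scaling. It was 836 higher and 1775 lower with arrays scaled to 1 median, and 600 higher and 2595 lower with unnormalized signals. The median difference over all genes moved with it, from 0.02 as reported to -0.11 and -0.16 on the log2 scale. Replicate 2 of the 87.5 mg/kg group stood apart on the second principal component (17.6% of the variance), at 39.7 where the other tumours lay between -25.9 and 18.9. The number of genes called was 780 where control replicate 1 was left out and 1277 where control replicate 2 was left out.

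All 9 detected integrin subunits had a difference below 0 in treated tumours, and 6 passed the test: ITGA2, ITGA5, ITGB8, ITGB4, ITGAV and ITGB1. No member was higher. Lower calls made up 8.97% and higher calls 9.88% of all genes tested. The median difference over the 9 subunits was -1.07, the value of ITGA6, against 0.02 over all genes tested. ITGA6 was dim, and its difference shrank to -0.61 without background correction, so the size of this median depends on the processing. In 7 of the 9 subunits all 10 treated tumours lay below both controls, which held for 11% of all genes tested, while in 11.5% all treated tumours lay above both. ITGA3 and ITGB5 were the exceptions. With arrays scaled to 1 median the 9 differences stayed below 0 after the shift of all genes was taken off, between -1.85 for ITGA2 and -0.42 for ITGB1. In whole tumours, fewer cells of a type and less RNA per cell cannot be told apart. Without replicate 2 of the 87.5 mg/kg group, 7 subunits were called in place of 6, ITGA6 being the addition. Without control replicate 1, 3 were called, and the losses were ITGAV (adjusted p 0.121), ITGB1 (0.191) and ITGB8 (0.0813). Without control replicate 2, ITGB1 alone was lost (adjusted p 0.0921).

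**Figure D1:**
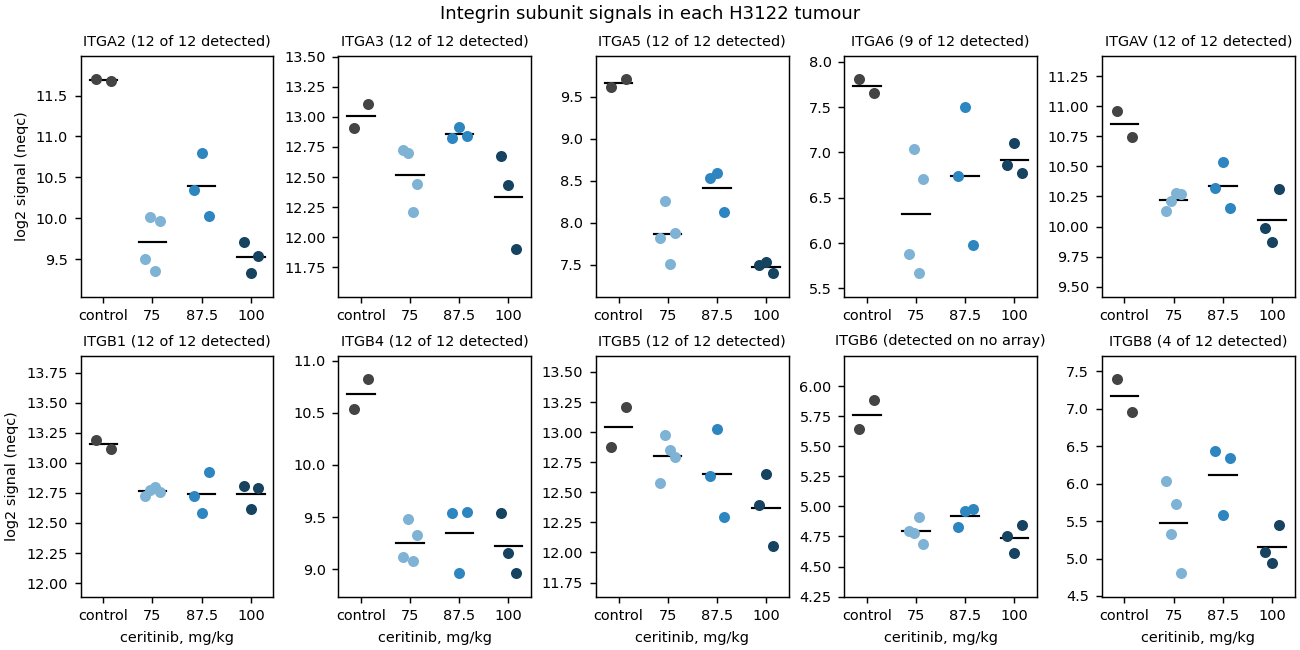
Log2 signal of each integrin subunit in each of the 12 tumours, by dose in mg/kg, each panel with its own axis. Points are tumours, bars are group means, and the panel title gives the number of arrays that detected the probe. In the panels of ITGA2, ITGA5 and ITGB4 every treated tumour sits below both controls.

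ITGA2 is the alpha subunit of a collagen receptor it forms with ITGB1. Its log2 signal was 9.50, 10.02, 9.36 and 9.96 at 75 mg/kg, 10.34, 10.80 and 10.03 at 87.5 mg/kg and 9.71, 9.32 and 9.53 at 100 mg/kg, against 11.70 and 11.68 in the controls. All treated tumours lay below both controls, and replicate 2 at 87.5 mg/kg came nearest to them. Treated tumours averaged 9.86 ± 0.47 (SD, n = 10) and controls 11.69 ± 0.02 (SD, n = 2). The difference was -1.82 ± 0.21 (SE, adjusted p 0.000209), which is 3.52-fold lower.

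ITGA5, which with ITGB1 forms the main fibronectin receptor, fell by nearly as much. Its log2 signal was 7.82, 8.26, 7.50 and 7.88 at 75 mg/kg, 8.53, 8.59 and 8.13 at 87.5 mg/kg and 7.50, 7.53 and 7.39 at 100 mg/kg, against 9.61 and 9.70 in the controls. No treated tumour reached a control, and the 3 tumours at 100 mg/kg were among the 4 lowest. The difference was -1.74 ± 0.17 (SE, adjusted p 8.30e-05), or 3.34-fold lower. ITGA2, ITGA5 and ITGB4 passed the test under each of the 23 alternative settings that were run for treated against control tumours.

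Laminin is bound by ITGA3 with ITGB1 and by ITGA6 with ITGB1 or ITGB4. ITGB4 carries a long cytoplasmic tail that ties hemidesmosomes to keratin. It had 9.12, 9.48, 9.08 and 9.33 at 75 mg/kg, 9.53, 8.96 and 9.55 at 87.5 mg/kg and 9.53, 9.15 and 8.97 at 100 mg/kg on the log2 scale, against 10.54 and 10.82 in the controls. The doses overlapped one another and none overlapped the controls. The difference was -1.41 ± 0.19 (SE, adjusted p 0.000508), 2.65-fold lower.

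ITGA6, the laminin-binding partner of ITGB4, was dim and uneven. Detection was reached on both control arrays and on 7 of 10 treated arrays, namely 2 of 4 at 75 mg/kg, 2 of 3 at 87.5 mg/kg and 3 of 3 at 100 mg/kg. Its log2 signal was 5.88, 7.04, 5.66 and 6.71 at 75 mg/kg, 6.74, 7.51 and 5.98 at 87.5 mg/kg and 6.86, 7.10 and 6.78 at 100 mg/kg, against 7.81 and 7.66 in the controls. All treated tumours were below both controls, but the tumours of 1 dose differed by more than a full log2 unit at 75 and at 87.5 mg/kg. The difference of -1.07 ± 0.38 (SE) missed the threshold, with an adjusted p of 0.0706 as reported and between 0.00865 and 0.327 over the alternatives, 7 of which passed.

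ITGA3 is the alpha subunit of a laminin receptor found in lung epithelium. Its log2 signal was 12.72, 12.70, 12.21 and 12.44 at 75 mg/kg, 12.82, 12.92 and 12.84 at 87.5 mg/kg and 12.67, 12.43 and 11.90 at 100 mg/kg, against 12.91 and 13.11 in the controls. Of the 10 treated tumours 9 were below both controls, and replicate 2 at 87.5 mg/kg lay just above the lower one. The difference was -0.44 ± 0.19 (SE) and did not pass the test (adjusted p 0.125).

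ITGAV is the common alpha subunit of the RGD receptors. It had log2 signals of 10.13, 10.21, 10.28 and 10.27 at 75 mg/kg, 10.32, 10.54 and 10.16 at 87.5 mg/kg and 9.99, 9.87 and 10.31 at 100 mg/kg, against 10.96 and 10.74 in the controls. The treated tumours lay within a narrow band below both controls. ITGAV fell by 0.65 ± 0.13 (SE, adjusted p 0.00684), 1.57-fold lower, a call that was lost without control replicate 1 (adjusted p 0.121).

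ITGB8, the beta partner with which ITGAV holds and activates latent TGF-beta, was above background in both controls, in 2 of 3 tumours at 87.5 mg/kg and in none of the tumours at 75 or 100 mg/kg. The normalized signals were 6.04, 5.33, 5.73 and 4.80 at 75 mg/kg, 6.44, 5.57 and 6.34 at 87.5 mg/kg and 5.09, 4.94 and 5.45 at 100 mg/kg, against 7.39 and 6.96 in the controls, on the log2 scale. Every treated tumour lay below both controls. Since the probe was not above background at the lowest and the highest dose, its folds there are bounds. ITGB8 was at least 2.04-fold lower at 75 mg/kg and at least 2.11-fold lower at 100 mg/kg. These bounds set each undetected signal, where lower, to the lowest detected signal of its array, and were not tested. The limma fit, which used the undetected signals as they were, gave -1.70 (adjusted p 0.00624) and -2.02 (adjusted p 0.00222) at these doses. The fitted difference over all treated tumours was -1.59 ± 0.30 (SE, adjusted p 0.00392), and it shrank to -0.77 without background correction (adjusted p 0.00405) and to -0.91 with unnormalized signals (adjusted p 0.00121). Without control replicate 1 its call was lost, with an adjusted p of 0.0813.

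ITGB6 forms with ITGAV the epithelial activator of latent TGF-beta. Its single probe was detected on 0 of 12 arrays and was left out of the tests. The detection p was 0.0532 and 0.0117 in the controls and 0.408 or more in every treated tumour, with normalized signals of 4.62 to 4.98 in treated tumours and 5.64 and 5.88 in controls. Both groups were therefore at background. With no filter on detection ITGB6 was called lower (limma, adjusted p 0.000189). That call rests on signals that no array detected, so no fold is given.

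ITGB5, which forms a vitronectin receptor with ITGAV, gave 12.57, 12.98, 12.86 and 12.79 at 75 mg/kg, 12.64, 13.03 and 12.30 at 87.5 mg/kg and 12.40, 12.65 and 12.05 at 100 mg/kg on the log2 scale, against 12.88 and 13.21 in the controls. Treated and control tumours overlapped, with 8 of 10 treated tumours below both controls. The difference of -0.44 ± 0.20 (SE) did not pass the test (adjusted p 0.146).

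ITGB1, the beta subunit shared by most of the alpha subunits above, changed least in size and varied least over the treated tumours, by its brightest probe. Its log2 signal was 12.72, 12.77, 12.80 and 12.76 at 75 mg/kg, 12.72, 12.58 and 12.93 at 87.5 mg/kg and 12.81, 12.62 and 12.79 at 100 mg/kg, against 13.19 and 13.12 in the controls. All treated tumours lay below both controls. ITGB1 fell by 0.41 ± 0.11 (SE, adjusted p 0.0217), 1.32-fold lower. With the mean of all kept probes its difference was -0.59, larger in size than those of ITGA3 (-0.44) and ITGB5 (-0.41) in that setting. The call rested on both controls, with an adjusted p of 0.191 without control replicate 1 and 0.0921 without control replicate 2.

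Several subunits had more than 1 probe, and each probe was also fitted on its own. Of the 13 probes that passed detection 7 were lower and none was higher, where lower calls made up 8.28% of all probes tested. In 9 of the 13 all treated tumours lay below both controls. That share was not counted over all probes, and over all genes tested it was 11%. For ITGB4 both detected probes were lower, by -1.41 and -1.34 on the log2 scale, and across the treated tumours they moved together (r = 0.867, n = 10, a description over 10 tumours that share arrays). The 3 detected probes of ITGB5 had differences of -0.44, -0.42 and -0.37, with adjusted p between 0.159 and 0.287. For ITGB1 the brighter probe, ILMN_1723467, was lower by -0.41 (adjusted p 0.0285), and the second, ILMN_1714820, had -0.77 ± 0.26 (SE, adjusted p 0.0648). The second ITGB1 probe was low in replicate 2 at 100 mg/kg, at 8.65, where the other treated tumours had 9.35 to 9.96. The remaining 10 probes, which belong to ITGA3, ITGA6, ITGB1, ITGB4, ITGB5 and ITGB6, were detected on 0 arrays.

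**Figure D2:**
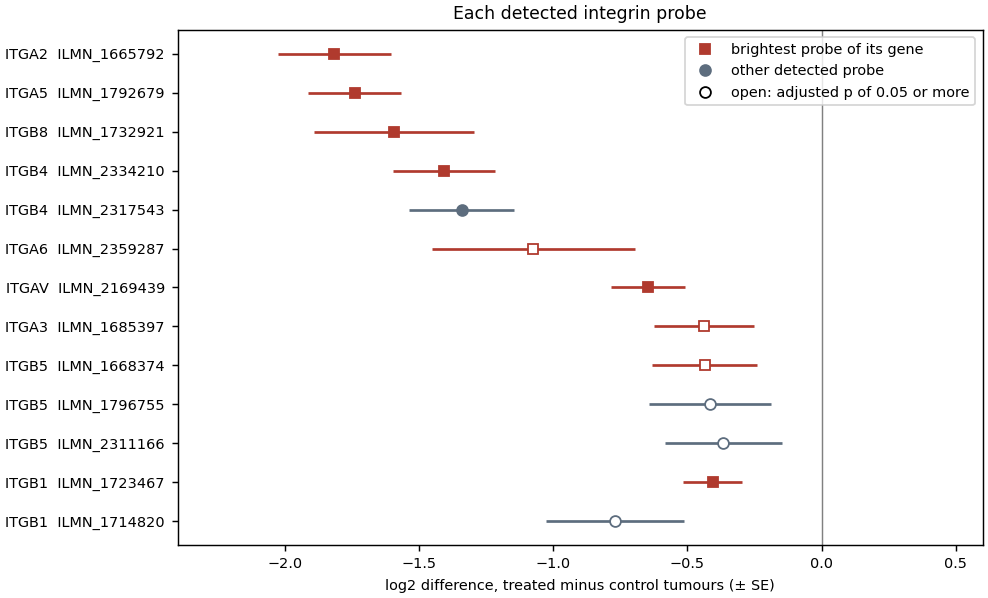
Difference between treated and control tumours on the log2 scale, with its SE, for each of the 13 detected integrin probes. Squares are the brightest probe of a gene and circles its other probes, and open symbols did not pass the test. Both ITGB4 probes lie near -1.4, and the 3 ITGB5 probes between -0.44 and -0.37.

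Dose by dose, 7 subunits were lower at 75 mg/kg, 3 at 87.5 mg/kg and 7 at 100 mg/kg, and none was higher at any dose. At these doses lower calls made up 7.13%, 2.93% and 10.2% of all genes tested and higher calls 7.37%, 3.25% and 11.9%. The 3 comparisons share the same control tumours. The medians over the 9 subunits were -1.41, -0.99 and -0.82, against 0.00, 0.01 and 0.04 over all genes. At each dose the median was the value of ITGA6, which was dim. At 100 against 75 mg/kg 8 of the 9 subunits had a difference below 0, ITGA6 being the exception at 0.59. ITGA2 had differences of -1.98, -1.30 and -2.17, ITGA5 of -1.79, -1.24 and -2.18, and ITGB4 of -1.43, -1.33 and -1.46, and each passed at all doses. ITGAV passed at 75 mg/kg (-0.63) and 100 mg/kg (-0.80) and had -0.52 at 87.5 mg/kg (adjusted p 0.0814). ITGB1 had -0.39, -0.41 and -0.41, with adjusted p of 0.0477, 0.0788 and 0.0347. ITGB8 had -1.06 at 87.5 mg/kg (adjusted p 0.103). ITGA6 passed at 75 mg/kg alone (-1.41, adjusted p 0.0459) and ITGA3 at 100 mg/kg alone (-0.67, adjusted p 0.0468). ITGB5 passed at no dose, with -0.67 at 100 mg/kg (adjusted p 0.0569).

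Several of these calls lay near the threshold and were lost when 1 tumour was left out. Where that tumour belonged to neither group compared, the difference stayed as it was and its p moved. At 75 mg/kg ITGA6 lost its call in 9 of the 12 fits that left out 1 tumour (adjusted p 0.0539 to 0.239, differences -1.54 to -1.19), namely without either control, replicate 1, 3 or 4 at 75 mg/kg, replicate 1 at 87.5 mg/kg or any replicate at 100 mg/kg. ITGB1 at 75 mg/kg also lost it in 9 of 12 (0.0605 to 0.268, differences -0.43 to -0.35), without either control, any replicate at 75 mg/kg, replicate 1 at 87.5 mg/kg or replicate 1 or 3 at 100 mg/kg. At 100 mg/kg ITGA3 lost it in 9 of 12 (0.0532 to 0.223, differences -0.77 to -0.45), without either control, replicate 1, 2 or 4 at 75 mg/kg, replicate 1 or 3 at 87.5 mg/kg or replicate 2 or 3 at 100 mg/kg. ITGB1 at 100 mg/kg lost it in 7 of 12 (0.0509 to 0.170, differences -0.45 to -0.35), without either control, replicate 2 or 4 at 75 mg/kg or any replicate at 100 mg/kg. ITGA2 at 87.5 mg/kg lost it without either control (0.0915 and 0.0556). Without control replicate 1, ITGAV was lost at 75 mg/kg (0.180) and 100 mg/kg (0.0536), and ITGB8 at 75 mg/kg (0.0856). Without replicate 2 at 87.5 mg/kg, 4 subunits were called at that dose in place of 3 and 8 at 100 mg/kg in place of 7. With control replicate 1 left out, 3 were called at 75 mg/kg and 4 at 100 mg/kg.

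**Figure D3:**
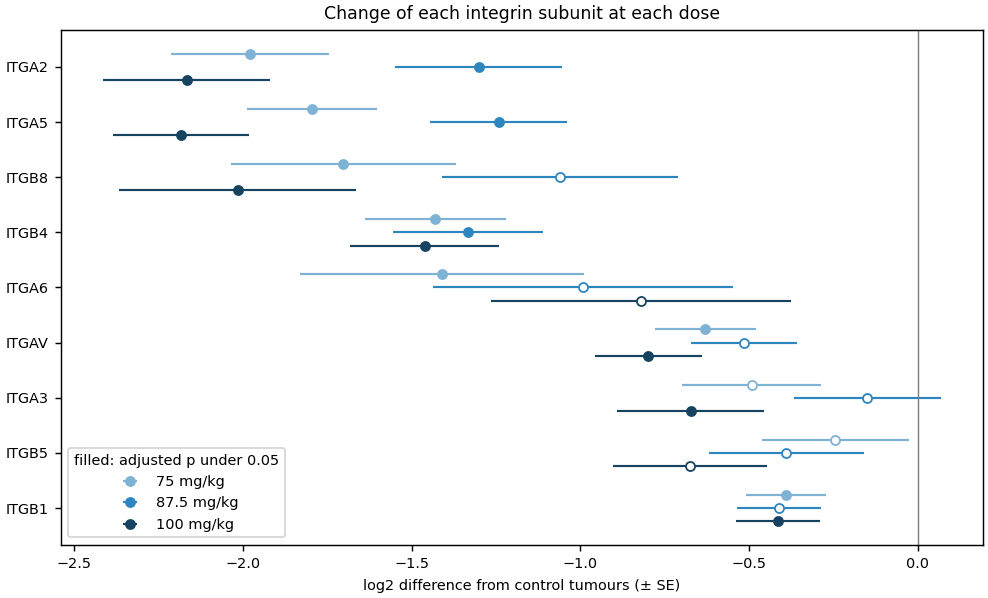
Difference from the control tumours on the log2 scale, with its SE, for each of the 9 detected subunits at 75, 87.5 and 100 mg/kg. Filled points passed the test. ITGA2, ITGA5 and ITGB8 show their smallest difference at 87.5 mg/kg, while the 3 points of ITGB1 lie at -0.39, -0.41 and -0.41.

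Between doses, differences were few. At 100 against 87.5 mg/kg 1 subunit passed, ITGA5, where lower calls made up 0.431% of all genes tested. ITGA5 had 7.50, 7.53 and 7.39 at 100 mg/kg, against 8.53, 8.59 and 8.13 at 87.5 mg/kg, and the 2 doses did not overlap. The difference was -0.94 ± 0.18 (SE, adjusted p 0.0477). The call lay at the threshold, and it was lost in 10 of the 12 fits that left out 1 tumour (adjusted p 0.0561 to 0.127), with differences between -1.09 and -0.85, that is in each except those without replicate 2 or replicate 3 at 75 mg/kg. ITGA2 had -0.87 ± 0.22 (SE, adjusted p 0.103), ITGB8 -0.95 ± 0.31 (SE, adjusted p 0.172) and ITGA3 -0.52 ± 0.19 (SE, adjusted p 0.220) in the same comparison. At 100 against 75 mg/kg 0 subunits passed in limma, where calls in either direction made up 0.667% of all genes. The differences lay between -0.43 and 0.59, and 2 subunits and 1927 genes had an unadjusted p under 0.05. At 87.5 against 75 mg/kg 0 of the 9 subunits and 0% of all genes passed, while 2 subunits and 1036 genes had an unadjusted p under 0.05. Those subunits were ITGA2, with 0.68 ± 0.21 (SE), and ITGA5, with 0.55 ± 0.17 (SE), each at an adjusted p of 0.470.

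ITGA2 and ITGA5 followed each other from tumour to tumour within the treated group. Over all 36 pairs of detected subunits, compared after the data had been seen, the median r across the 10 treated tumours was 0.272 and 25 pairs were above 0. A single pair passed a permutation test adjusted over the 36, and it was ITGA2 with ITGA5 (r = 0.907, p = 0.00025, adjusted p 0.009). Spearman's rho was 0.794 (permutation p 0.00854, adjusted p 0.124), and r was 0.883 without the 2 tumours farthest from the median of ITGA2. With dose means removed r was 0.776 and the pair did not pass (permutation test, adjusted p 0.0713), while ITGA2 with ITGA6 (0.891) and ITGA5 with ITGA6 (0.888) did, each with an adjusted p of 0.0205. With dose means left in, these 2 pairs had r of 0.504 and 0.329. The permutation test with dose means removed shuffled tumours across doses, so its p-values can be too small. ITGA6 was detected on 7 of the 10 treated arrays. Without replicate 2 at 87.5 mg/kg r of ITGA2 with ITGA5, dose means left in, was 0.884 (permutation test, adjusted p 0.0724). The pair was chosen from these values. Among the doses both genes had their highest mean at 87.5 mg/kg.

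**Figure D4:**
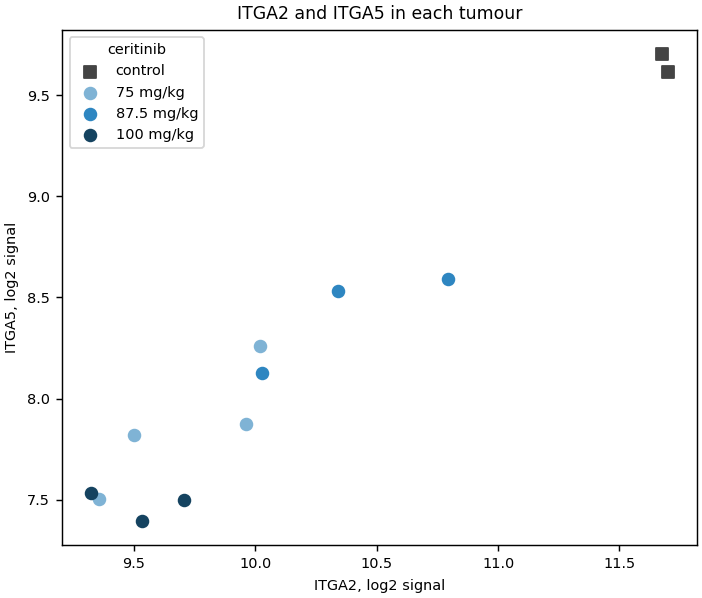
Log2 signal of ITGA5 against that of ITGA2, 1 point per tumour, coloured by dose. The 10 treated tumours lie along a line (r = 0.907), with the 87.5 mg/kg tumours towards its upper end, and the 2 controls lie apart at about 11.7 for ITGA2.

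For 3 of the subunits called lower, ITGA2, ITGA5 and ITGB8, the 250 bases before their annotated start are shown, from RefSeq on GRCh38.p14 and read along the strand of the gene. The ITGA2 window is chr5:52989102-52989351 on the plus strand, the ITGA5 window chr12:54419267-54419516 on the minus strand and the ITGB8 window chr7:20330650-20330899 on the plus strand. Capitals mark the GC box GGGCGG or its reverse complement and the TEAD element GGAATG or its reverse complement, and these matches do not overlap one another.
ITGA2: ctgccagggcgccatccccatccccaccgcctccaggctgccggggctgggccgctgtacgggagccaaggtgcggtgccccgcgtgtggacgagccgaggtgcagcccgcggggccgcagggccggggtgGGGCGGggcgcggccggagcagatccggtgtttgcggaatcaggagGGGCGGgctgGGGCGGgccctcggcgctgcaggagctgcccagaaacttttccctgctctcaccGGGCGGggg
ITGA5: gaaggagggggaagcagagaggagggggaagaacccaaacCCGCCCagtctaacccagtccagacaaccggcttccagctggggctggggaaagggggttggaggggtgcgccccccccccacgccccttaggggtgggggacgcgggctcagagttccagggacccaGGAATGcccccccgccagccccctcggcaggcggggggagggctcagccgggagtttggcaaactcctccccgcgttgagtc
ITGB8: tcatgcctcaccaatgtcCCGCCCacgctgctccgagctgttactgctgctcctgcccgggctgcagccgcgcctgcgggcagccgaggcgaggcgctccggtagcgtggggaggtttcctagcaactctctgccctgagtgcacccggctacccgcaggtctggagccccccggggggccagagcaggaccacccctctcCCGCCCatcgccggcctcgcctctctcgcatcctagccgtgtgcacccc
The ITGA2 window held 4 GC boxes, the ITGB8 window 2, and the ITGA5 window 1 GC box and 1 TEAD element. Of the 13 windows of the members 7 held a GC box and 2 a TEAD element. The first ITGB1 window, of the member with the smallest difference by brightest probe, held 3 GC boxes and 1 TEAD element. Among all 35116 promoter windows of the same length, 42.6% held the GC box and 11.9% the TEAD element. The AP-1 element TGANTCA, searched on both strands, was in 0 of the 13 windows of the 8 members matched in this table and in 6.57% of all windows. A match describes letters in a window and is not a binding site, and binding was not measured in these tumours. ITGA3 and ITGB4 had no entry.

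Receptors need both partners, so the difference between beta and alpha signal was compared for the pairs of members that are known to form receptors. The ITGAV-ITGB6 pair was left out because ITGB6 was at background, which left 8 of 9 pairs. The gap of ITGB1 over ITGA2 was 2.89 ± 0.50 in treated tumours (SD, n = 10) and 1.46 ± 0.04 in controls (SD, n = 2), a change of 1.43. For ITGA5 the gap to ITGB1 changed by 1.34. Both gaps use the brighter ITGB1 probe, which had -0.41 in treated against control tumours, where the second detected probe had -0.77. Their sizes therefore depend on the probe, and the gaps were not computed with the second. For ITGAV the fitted gap to ITGB8 changed by -0.96, a size that carries little weight because ITGB8 was above background in 2 of 10 treated tumours. In each of these 3 pairs no treated tumour overlapped the controls, and the exact two-sided permutation test gave 0.0303, the smallest p that 66 arrangements allow. Adjusted over the 8 pairs this was 0.0808, so 0 of 8 passed, and with 2 controls none could have had a smaller unadjusted p. The change for ITGAV-ITGB8 depended on the scaling and was -0.08 with unnormalized signals. The other 5 pairs changed by -0.30 to 0.70. These are changes in a difference of log2 signals within a tumour and do not compare the levels of 2 probes.

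Partner subunits were also compared across the 10 treated tumours. Of the 8 pairs 0 passed, none having an unadjusted p under 0.05, with r between -0.61 and 0.32. The lowest was ITGA6 with ITGB1 (r = -0.609, permutation test, adjusted p 0.488, rho = -0.455, adjusted p 0.749), and r was -0.88 without the 2 tumours farthest from the median of ITGA6. The highest was ITGAV with ITGB5 (r = 0.321, permutation test, adjusted p 0.800, rho = 0.309, adjusted p 0.749).

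The tumours also differed as wholes. Replicate 2 at 87.5 mg/kg had the highest signal of the 10 treated tumours for 6 of the 9 subunits and the lowest for 2. Replicate 3 at 100 mg/kg had the lowest for 3. On average over the 9 subunits, the tumours at 75 mg/kg lay -0.10, 0.16, -0.21 and -0.05 from the treated mean on the log2 scale, those at 87.5 mg/kg 0.30, 0.34 and 0.09, those at 100 mg/kg -0.09, -0.20 and -0.25, and each control 1.07.

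For each subunit the 1 other gene with the most similar course over the 10 treated tumours was recorded, as a description with no test. The values were r = 0.951 for ITGA2 with TUBB3, a neuronal beta tubulin, 0.973 for ITGA5 with PRRX2, a mesenchymal homeobox factor, and 0.925 for ITGB4 with CMTM3. They were 0.945 for ITGA3 with FBXW5, 0.965 for ITGA6 with NR1D1, 0.942 for ITGAV with MCTP2, 0.932 for ITGB1 with CGB8, 0.874 for ITGB5 with PHKG1 and 0.906 for ITGB8 with PCDHAC2. Of the 12 arrays 5 detected NR1D1, 5 PCDHAC2, 7 PHKG1, 8 CGB8, 9 PRRX2 and 11 MCTP2, so these values rest in part on signals near background. In treated against control tumours PRRX2 had -2.27 (limma, adjusted p 0.00101), TUBB3 -0.95 (adjusted p 0.0153) and CMTM3 -0.74 (adjusted p 0.0272). PHKG1 went the other way, with 0.84 (limma, adjusted p 0.0304). FBXW5, NR1D1, MCTP2, CGB8 and PCDHAC2 did not pass, with differences between -1.03 and 0.29. All these points share the arrays, and each gene was the best match among all genes tested.

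Another 16 integrin subunits were on the array. Of these 9 passed detection, 2 were lower and none was higher, with a median of -0.11, beside 8.97% lower and 9.88% higher among all genes tested. ITGA1, another collagen-binding partner of ITGB1, had a mean log2 signal of 5.58 in treated tumours and 6.77 in controls. Its probe was above background on both control arrays and on 1 treated array only, so it met the filter only through the controls. The fitted difference of -1.14 (adjusted p 0.0038) is set by signals near background in the treated tumours, and this call carries little weight. ITGB2, the beta subunit of leukocyte integrins, fell by 0.62 (adjusted p 0.0099). ITGA9, not above background in either control, did not pass (adjusted p 0.0542), and the other 6, ITGA4, ITGA10, ITGA11, ITGAE, ITGB3 and ITGB7, had differences between -0.40 and 0.18. Whether these subunits differ as a list from the 10 described here was not tested.

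Among the matrix proteins that integrins bind, 5 of 10 detected laminins and basement membrane proteins were lower and none was higher (18 on the array, median -0.87), beside 8.97% lower and 9.88% higher among all genes tested. They were LAMB3 (-2.28, adjusted p 0.0014) and LAMA5 (-1.09, 0.0121), chains of epithelial laminins, LAMB1 (-1.60, 0.0014) and LAMC1 (-0.81, 0.0016), chains shared by many laminins, and AGRN (-0.90, 0.0314). LAMB3 had a mean log2 signal of 9.13 in treated tumours and 11.42 in controls. Of the fibronectin, vitronectin and other ligands 5 of 8 detected genes were lower and none was higher (15 on the array, median -0.74). COL5A1 had -2.79 (adjusted p 0.0003), TNC, which encodes the matrix protein tenascin C, -2.60 (0.0079), COL1A2 -1.01, COL1A1 -0.74 and CCN1 -0.74. COL5A1 was detected on 4 and COL1A2 on 3 of the 10 treated arrays, so their sizes rest on signals near background. THBS1, CCN2 and MFGE8 had 0.10, 0.04 and -0.38. FN1, VTN and SPP1, the ligands for which these receptors are best known, were detected on 0 arrays by any probe assigned to them. Of the latent TGF-beta list 1 of 5 detected genes was lower, TGFB3 (-0.63, adjusted p 0.0350), none was higher, and the median was -0.09. LTBP2, which encodes a latent TGF-beta binding protein, had -1.62 (adjusted p 0.0573), and TGFB1 was detected on 0 arrays.

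Inside the cell, 8 of 30 detected talin, kindlin and focal adhesion genes were lower and 2 higher (33 on the array, median -0.13), where all genes tested gave 8.97% lower and 9.88% higher. The lower ones were TNS3 (-1.33, adjusted p 0.0024), VASP (-0.83, 0.0039), PXN (-0.82, 0.0033), TES (-0.69), ACTN1 (-0.51), ACTN4 (-0.47), PARVA (-0.42) and BCAR1 (-0.41). TNS3 encodes a tensin that links the beta tail to actin and PXN encodes paxillin, a scaffold of focal adhesions. The higher ones were NEDD9, a docking protein of the BCAR1 family, at 2.09 (adjusted p 0.0011), and FERMT2, a kindlin that activates integrins, at 0.32 (adjusted p 0.0401). TLN1, the talin that opens the receptors, had 0.03, ILK -0.06 and PTK2, the focal adhesion kinase, -0.29, and none of these passed. Among hemidesmosome and laterally bound partners 3 of 8 were lower and 1 higher (median -0.27). CAV1, the main protein of caveolae, had -2.92 (adjusted p 0.0003), PLEC, which ties ITGB4 to keratin, -1.30 (0.0017), DST, the other plakin of hemidesmosomes, -1.25 (0.0107), and CD82, a tetraspanin, 0.65 (0.0437). Of the treated arrays 7 detected CAV1 and 6 detected DST. CD151, the tetraspanin that binds ITGA3 and ITGA6, had -0.14 and did not pass. Of 11 genes that inactivate or recycle integrins 3 were lower and none higher (median -0.19), namely DAB2 (-1.28, adjusted p 0.0045), RAB11A (-0.42, 0.0445) and RAB25 (-0.37, 0.0239).

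**Figure D5:**
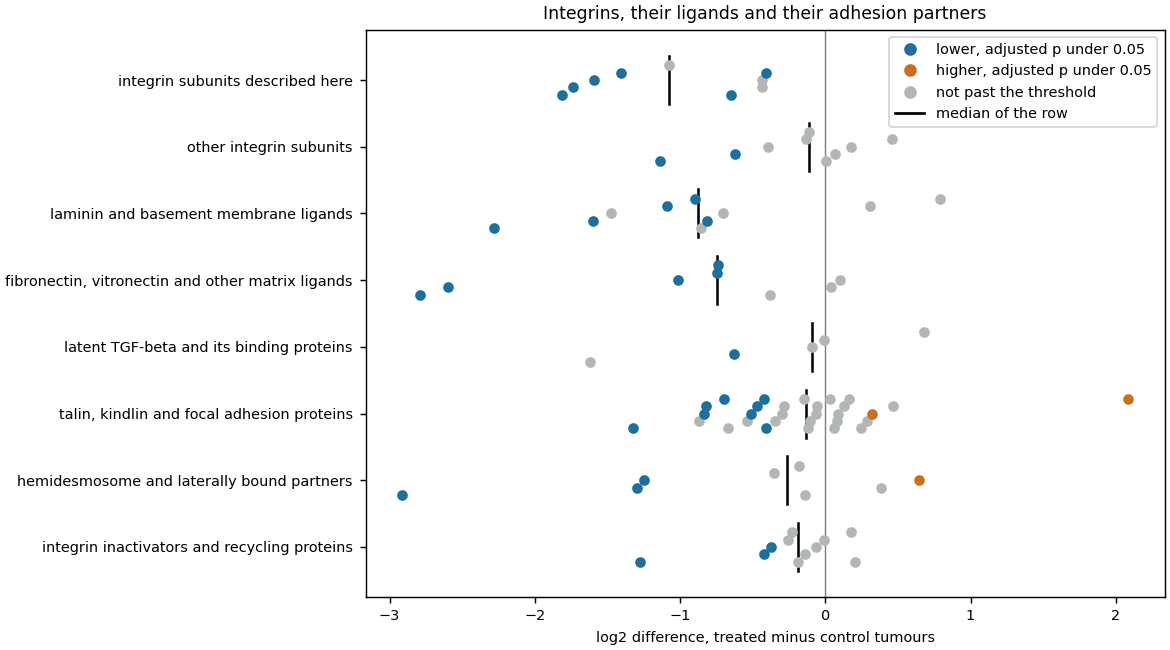
Difference between treated and control tumours on the log2 scale, 1 point per detected gene, for the subunits described here and for 7 lists of other integrins, ligands and adhesion partners. Blue and orange points passed the test as lower and higher, grey points did not, and the vertical bar is the median of the row. The medians lie at -1.07 for the subunits, -0.87 for laminins and basement membrane, -0.74 for the other ligands and between -0.27 and -0.09 for the remaining lists. The median of the subunits is the value of ITGA6, which was dim.

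Markers of the cell types a tumour can hold moved too, and the counts stand beside 8.97% lower and 9.88% higher among all genes tested. All 8 epithelial markers were detected, among them EPCAM, KRT8 and CDH1 on all arrays, 3 were lower (KRT7 -1.01, KRT19 -0.64, CDH1 -0.59) and NKX2-1, the lineage factor of lung adenocarcinoma, was higher (0.70). The log2 of their summed signal was 16.59 to 16.84 in treated tumours and 16.77 to 17.00 in controls. Of 9 fibroblast markers 5 were detected and 4 were lower, with fitted differences of -2.17 for LUM and -0.74 for COL1A1, each detected on all arrays, and of -1.01 for COL1A2 and -0.86 for FAP, detected on 3 and 1 of the 10 treated arrays, and a summed signal of 9.56 to 10.71 in treated tumours and 11.01 to 11.07 in controls. FAP met the filter only through the controls, so its call carries little weight. COL1A1 and COL1A2 are also in the list of matrix ligands. COL3A1, PDGFRA and PDGFRB were detected on 0 arrays. Of 6 endothelial markers 4 were detected and VWF was higher (2.02), with sums of 9.87 to 10.54 in treated tumours and 9.35 to 9.48 in controls, and TEK and EMCN on 0 arrays. Of 9 macrophage and leukocyte markers 4 passed detection and CD163 was higher, by at least 1.60-fold since neither control detected it. CD163 met the filter only through the treated tumours, and its adjusted p of 0.000383 (limma) belongs to the fitted difference of 1.25. The sums of these markers were 12.44 to 13.15 in treated tumours and 11.99 to 12.79 in controls. PTPRC, CSF1R, CD3E and MS4A1 were detected on 0 arrays. The fibroblast sums lay apart between the groups, lower in treated tumours, and the endothelial sums lay apart as well, higher in treated tumours. The part of any of these cell types in the integrin differences was not tested. How well these human probes exclude RNA of the mouse host was not tested either.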

How the data were processed

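RNA of 12 tumours was hybridized as biotinylated cRNA to Illumina expression bead arrays, per the labels' protocols. The authors deposited 1 average signal intensity per probe and array, with no normalization. Beside each signal the authors gave a detection p-value, as the header of the text table names it. The scanner software and any genome build are not given in the labels or headers. The text table and the value table held the same signals in all 47323 rows but the same probe identifier in 1 row, so probes were named by the value table and took their detection p from the row with the same signals. The choice was checked on genes with at least 2 probes. Between 2 probes of a gene, the treated minus control difference correlated at 0.767 over 3228 genes with detected probes under the names of the value table, and at -0.027 over 1928 under those of the text table. EPCAM, KRT8, KRT19 and CDH1 were all detected under the first and 1 of 4 under the second. The submitters' own answer is not known here, and gene names rest on this check. The design had foreseen a normalized value table; its alternative became unnormalized log2 signals.

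Signals were background corrected and quantile normalized with neqc of limma 3.58.1 (offset 16), which here inferred the negative controls from the detection p, in R 4.3.3. A probe was kept when its detection p lay under 0.01 on 2 or more arrays, and a gene was represented by its brightest kept probe. Of all probes 30113 had 1 gene symbol in the platform annotation, 8 had several and 17202 had none. All 4 groups were fitted together with lmFit and eBayes, p-values were adjusted by Benjamini-Hochberg over all 12300 genes, and the treated contrast is the unweighted mean of the 3 doses minus control. Group means weight each tumour alike. Correlations used 100000 resamples in Python 3.11.15 with scipy 1.17.1. The fit was tested on simulated data.

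The members and the 11 gene lists were chosen with earlier results of these data known. All members, every gene past the threshold in a list, the 3 smallest p of each list and, per member, the most similar gene may be named; other list members were chosen after their values were seen. Alternatives covered background, offset, normalization, detection, probe choice, spread, array weights, samples in the fit, a replicate block and leaving out each tumour. The labels do not say whether replicate numbers shared between groups pair the tumours, and the main fit used no pairing. Deviations from the group means correlated over 0.1 in 4 of 15 same-numbered pairs (range -0.22 to 0.38). With groups this small, such correlations cannot decide the question. Precision is limited by the number of arrays. Scanner batches were not given, so none was tested.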

Additional observations from a re-analysis of the deposited data

Results flagged for a closer look

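ITGA5 differed between 2 doses of the drug, with -0.94 on the log2 scale at 100 against 87.5 mg/kg, and it is listed because the test of that difference itself passed the threshold. It was the only one of 27 differences between doses over the 9 subunits to do so. Its adjusted p of 0.0477 lay at the threshold, and fits that left out 1 tumour gave 0.0345 to 0.127. At 75 mg/kg, the dose with 4 tumours, each of the 9 subunits was also searched for a tumour far from the others, and 0 were found.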

How the results depend on the processing

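The number of subunits called moved by more than 1.5 times in the following settings. At 87.5 mg/kg against control, the count of 3 became 7 with unnormalized signals, 5 with arrays scaled to 1 median, 5 with array weights and 0 when only the groups compared were fitted, while lower calls over all genes went with it, at 1591, 769, 615 and 78 against 360 as reported. At 100 against 87.5 mg/kg, the count of 1 became 0 with no filter on detection, with only the groups compared and with a replicate block. The count of lower probes went to 11 with unnormalized signals, against 7 as reported. Lower calls over all genes went from 1103 to 2595 with it. Over all pairs of members the count of 1 became 2 with dose means removed, and these were other pairs, ITGA2 with ITGA6 (r = 0.891, permutation test, adjusted p 0.0205) and ITGA5 with ITGA6 (r = 0.888, adjusted p 0.0205). The cause was not tested, and the permutation test shuffled tumours across doses, which can make these p-values too small. Leaving out 1 tumour in turn gave counts of 3 to 7 for treated tumours, 3 to 7 at 75 mg/kg, 2 to 4 at 87.5 mg/kg, 4 to 8 at 100 mg/kg, 0 to 0 at 100 against 75 mg/kg, 0 to 1 at 100 against 87.5 mg/kg, 0 to 0 at 87.5 against 75 mg/kg, 4 to 8 for the probes, 0 to 0 for both sets of partner pairs and 0 to 2 for all pairs; a lone remaining control is assumed to vary like the other groups. With the replicate block the counts were 6 in treated tumours, 5 at 75 mg/kg, 4 at 87.5 mg/kg and 5 at 100 mg/kg. Over all genes the block gave 1662 calls in place of 2318, and whether the numbers pair the tumours is not known. No difference of the 9 subunits against control changed sign in any of these alternatives. Of 618 differences between doses under the alternatives 22 changed sign, none of them past the threshold, and none larger than 0.18 as reported. ITGB8 could not be fitted when detection on at least 6 arrays was asked for. Signals near background limit ITGB8, ITGA6 and ITGB6.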
